A study of Mus musculus with 22 samples.

Results

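Genes of glycolysis and of the transcriptional response to low oxygen, 34 in all, were followed through 22 RNA sequencing libraries of natural killer (NK) cells, pancreatic cancer cells and tumours of the mouse. They were taken as a list of symbols, with no threshold on their values, but the list was drawn up with earlier results of these data known. All 34 symbols were matched to gene identifiers in the deposited tables, which hold 78298 genes. They comprise 24 genes of glucose use (4 transporters of glucose or lactate, 17 enzymes and 3 regulators of flux) and 10 genes of the oxygen response, namely Hif1a and 9 targets of hypoxia-inducible factor (HIF).

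The study compares female and male mice in how NK cells act on pancreatic tumour cells. NK cells came from the spleens of female and male mice, with 2 libraries per sex in each of 3 conditions: fresh and untreated, cultured alone for 24 h with IL-2 (interleukin-2, a growth and activation signal for lymphocytes), and co-cultured for 24 h with IL-2 beside Panc02, a mouse pancreatic cancer line. Panc02 cultured alone gave 2 libraries, and Panc02 grown as syngeneic allograft tumours gave 4 from female and 4 from male hosts. Female NK samples carry the numbers 1 and 2, male NK samples 4 and 5, allografts in female hosts 1 to 4 and those in male hosts 5 to 8. Strain, age, injection site and time of tumour growth are not given in the sources used here, and separate animals behind the samples are not stated, so p-values measure only the spread between these samples. RNA of sorted NK cells was taken on oligo(dT) beads, and that of cell experiments and tumours with a phenol reagent; the labels do not assign a method sample by sample, so an effect of extraction between fresh and cultured NK cells cannot be told apart from culture. The labels name both cell types for a co-culture library, although its cell type entry names NK cells alone. They do not say that the cells were separated.

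Levels are given as CPM, the counts of a gene per 1e6 counts over all genes in the same library, and these totals ran from 13025549 to 46842646. The sum of 8 NK marker genes was 7400 to 8580 CPM in fresh NK cells and 7470 to 8400 CPM in NK cells cultured alone, against 17.7 and 19.7 CPM in cultured Panc02. In cultured Panc02 6 of the 8 were at 0 and Eomes alone reached 19.7 CPM. The sum of 6 Panc02 epithelial markers was 4270 and 4330 CPM in cultured Panc02, 4030 to 4110 CPM in co-culture, 752 to 1770 CPM in allografts, 2.3 to 3.91 CPM in fresh NK cells and 8.82 to 23.6 CPM in NK cells cultured alone. Epcam, 1 of these 6, was at most 1.11 CPM in cultured Panc02 and reached 5.33 CPM in NK cells cultured alone. By the median over 361 genes restricted to NK cells, NK transcripts made up 2.81% and 3.42% of the co-cultures with female NK cells and 2.05% and 1.76% of those with male NK cells, so a co-culture library was mostly Panc02 RNA. These shares assume that NK cells held such genes at the same level in co-culture as when cultured alone, which was not tested.

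In glycolysis a cell takes up glucose through transporters such as Slc2a1 and Slc2a3 (GLUT1 and GLUT3), splits it through a chain of cytosolic enzymes, and exports the lactate formed by Ldha through Slc16a1 and Slc16a3 (MCT1 and MCT4). When oxygen is short, the prolyl hydroxylases Egln1 and Egln3 no longer mark the HIF-1 alpha protein for destruction, and the stabilised factor raises transcription of most glycolytic genes and of genes for vessel growth, acid handling and mitophagy. Activated lymphocytes and tumour cells are both known for high glycolytic flux. HIF-1 alpha is controlled mainly as a protein, so Hif1a mRNA does not report its activity.

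HIF binds DNA at a short core, ACGTG or GCGTG. Promoters are shown for 4 HIF targets named in the allograft and co-culture results, not all of which changed there. Each run covers 250 bases before to 50 bases after the transcription start in RefSeq (assembly GRCm38.p6, not the GRCm39 build of the counts), is written 5′ to 3′ on the gene's strand, and carries in capitals each ACGTG or GCGTG on either strand, where overlapping matches run together. Car9 lies at chr4:43506776-43507075 on the plus strand, Bnip3 at chr7:138909457-138909756 on the minus strand, Ankrd37 at chr8:45999801-46000100 on the minus strand and Egln3 at chr12:54203825-54204124 on the minus strand.
Car9 promoter: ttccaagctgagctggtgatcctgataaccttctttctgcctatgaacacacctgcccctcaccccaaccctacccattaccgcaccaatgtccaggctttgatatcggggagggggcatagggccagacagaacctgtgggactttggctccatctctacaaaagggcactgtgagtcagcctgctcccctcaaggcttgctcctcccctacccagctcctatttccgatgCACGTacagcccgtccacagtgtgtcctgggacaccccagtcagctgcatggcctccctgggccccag
Bnip3 promoter: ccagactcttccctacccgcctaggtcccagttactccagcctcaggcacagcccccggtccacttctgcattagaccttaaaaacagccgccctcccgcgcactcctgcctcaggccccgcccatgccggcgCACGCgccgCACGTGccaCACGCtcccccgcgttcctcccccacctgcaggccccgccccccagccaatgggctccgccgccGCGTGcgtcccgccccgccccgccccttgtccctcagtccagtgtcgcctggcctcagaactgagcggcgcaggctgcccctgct
Ankrd37 promoter: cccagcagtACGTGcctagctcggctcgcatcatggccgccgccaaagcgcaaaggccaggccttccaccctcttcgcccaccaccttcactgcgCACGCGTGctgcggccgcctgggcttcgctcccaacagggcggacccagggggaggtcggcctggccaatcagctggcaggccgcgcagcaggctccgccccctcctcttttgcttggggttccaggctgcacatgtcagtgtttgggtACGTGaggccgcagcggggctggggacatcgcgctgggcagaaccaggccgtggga
Egln3 promoter: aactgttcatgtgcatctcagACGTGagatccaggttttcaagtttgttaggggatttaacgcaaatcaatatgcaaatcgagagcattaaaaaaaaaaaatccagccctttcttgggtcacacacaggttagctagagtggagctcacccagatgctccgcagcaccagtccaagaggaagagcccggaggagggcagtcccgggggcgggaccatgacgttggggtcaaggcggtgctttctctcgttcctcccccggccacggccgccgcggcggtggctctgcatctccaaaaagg

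The Car9 window held 1 ACGTG, close to the start site, and no GCGTG. The Bnip3 window held 2 ACGTG, which are both strands of 1 CACGTG, and 3 GCGTG, and the Ankrd37 window held 2 of each. The Egln3 window held 1 ACGTG, far from the start. A core of either kind was present in 9 of 10 promoters of 9 oxygen-response genes and in 28 of 36 promoters of 23 glycolysis genes, against 43.8% of all 32851 promoters of the same length. Slc2a3 and Ndrg1 had no entry. Some windows of Aldoa, Eno1 and Pfkm overlap, so the same core can be counted more than once. The contrast with all promoters was not matched for base content and was not tested. A match of 5 letters is a description of the sequence and not a binding site.

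**Figure D1:**
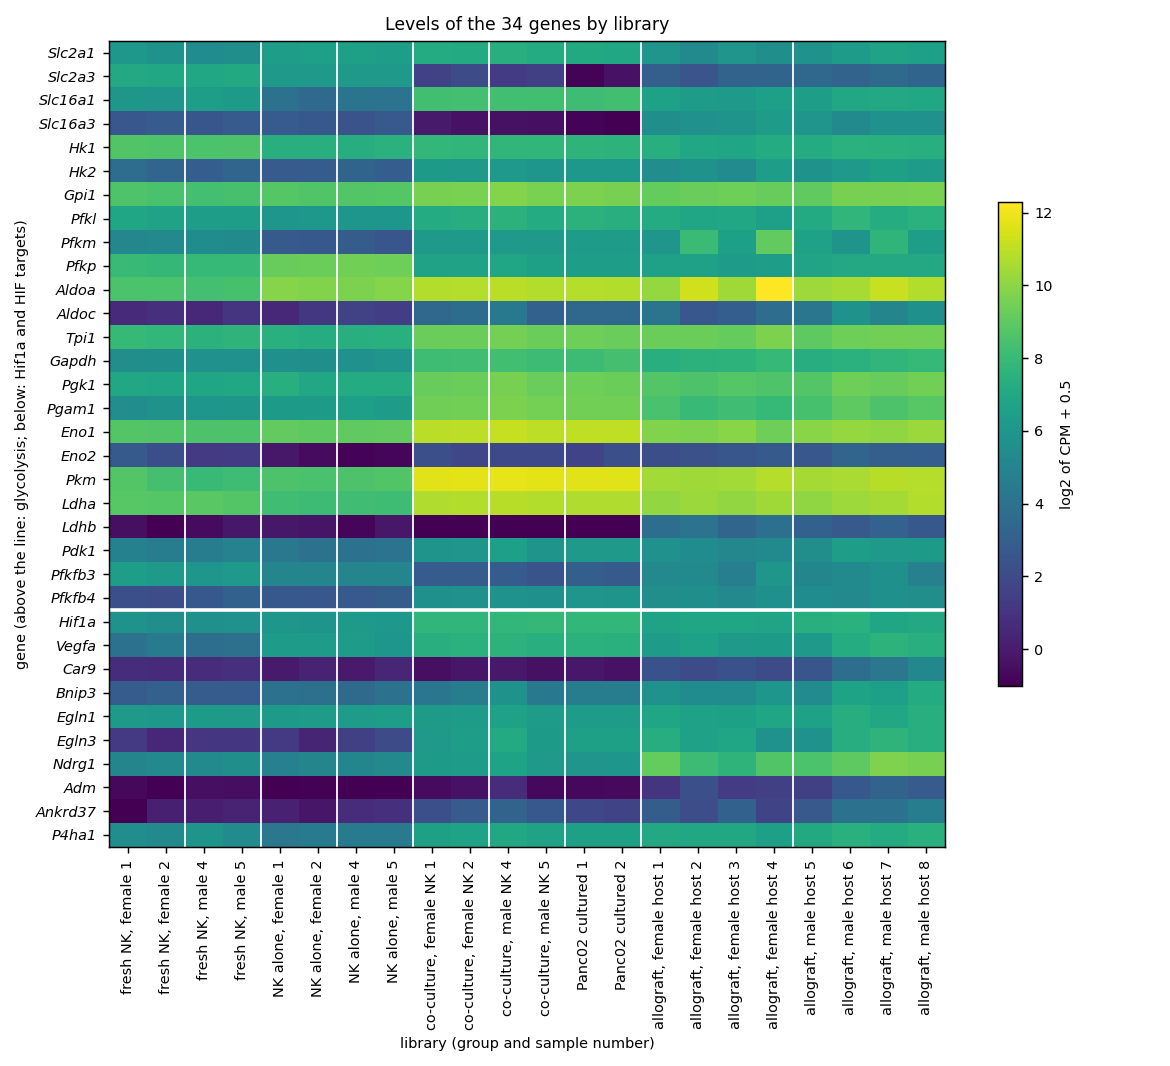
Levels of the 34 genes (rows) in each of the 22 libraries (columns, by group and sample number), as log2 of CPM + 0.5. Slc16a3, Ldhb and Slc2a3 are near the bottom of the scale in cultured Panc02 and well above it in the allografts, and Pfkp is highest in NK cells cultured alone, at 585 to 698 CPM.

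The map of levels shows first how NK cells after 24 h with IL-2 differed from the tumour line. NK cells cultured alone were lower than cultured Panc02 in 25 members and higher in 5 of 33 tested by edgeR's quasi-likelihood test with Benjamini-Hochberg adjustment over all genes. Of all 19910 genes tested, 76.5% were called, 35.8% lower and 40.7% higher. Throughout, "called" means an adjusted p below 0.05 in that test, and rose, fell, higher and lower are used of called genes.

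The 5 members higher in NK cells were Slc2a3, Slc16a3, Pfkp, Pfkfb3 and Ldhb. Per kilobase of exon, Slc2a3 and Slc2a1 were at similar levels in fresh NK cells, at 17.6 CPM per kb each in female and at 17.8 and 13.2 in male cells, whereas in cultured Panc02 Slc2a3 was at 0.0226 and Slc2a1 at 37.2 CPM per kb. Of the 3 phosphofructokinases, the enzymes of the committed step, Pfkp led in NK cells cultured alone (48.0 CPM per kb against 9.65 for Pfkl and 1.83 for Pfkm), while in cultured Panc02 Pfkl (26.6) and Pfkm (23.5) stood above Pfkp (6.58 CPM per kb). The bifunctional regulators split in the same manner: Pfkfb3 was at 4.35 CPM per kb in NK cells cultured alone and 0.917 in Panc02, and Pfkfb4 at 1.26 and 12.3. Lactate dehydrogenase was almost all Ldha in both, and Ldhb, its partner subunit, had no count in cultured Panc02 and 40 counts over the 4 libraries of NK cells cultured alone. That Ldhb call was lost without either Panc02 library (log2 fold change 6.51 without Panc02 1, adjusted p = 0.0586, and 6.55 without Panc02 2, adjusted p = 0.0525), and with 1 near-identical copy added (1.86, adjusted p = 0.104).

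Among the 25 members lower in NK cells were 14 of the 17 enzymes, led by Eno2 (log2 fold change -4.59 ± 0.47 SE), Pfkm (-3.59 ± 0.11), Hk2 (-3.07 ± 0.11), Pgam1 (-3.05 ± 0.06) and Pkm (-2.99 ± 0.06). The HIF targets Egln3 (-5.54 ± 0.21) and P4ha1 (-2.04 ± 0.08), the first a hydroxylase that feeds back on HIF and the second a collagen-modifying hydroxylase, were lower as well. Egln1 was at 79.3 ± 4.28 CPM (SD, n = 4) in NK cells cultured alone and 79.8 ± 2.34 (n = 2) in Panc02, with no call.

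Culture of NK cells with IL-2 changed most of the tested members, but not in one direction. Against fresh NK cells, 13 rose and 11 fell of 33 tested, beside 45.2% of all 19623 genes called, 23.1% that rose and 22.0% that fell; Adm, with 18 counts over the fresh and 1 over the cultured libraries, was not tested. The median log2 change was 0.36 over the 17 enzymes, 0.41 over the 9 tested oxygen-response genes and 0.01 over all genes tested. In bulk libraries of this kind fewer cells of a type and less RNA per cell cannot be told apart.

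**Figure D2:**
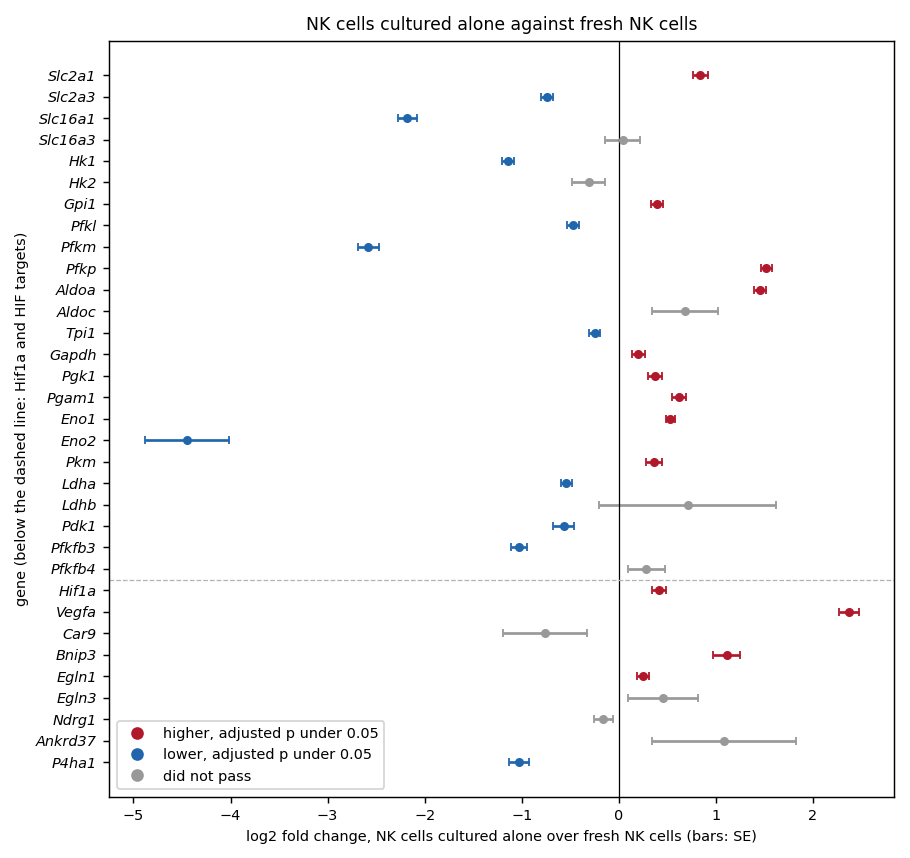
Log2 fold change of each tested member in NK cells cultured alone over fresh NK cells, both sexes averaged (horizontal axis; points are edgeR estimates, bars are SE, and colour marks adjusted p). Vegfa, Pfkp and Aldoa lie farthest to the right among the genes that rose, at 2.37, 1.52 and 1.45, and Eno2, Pfkm and Slc16a1 farthest to the left, at -4.45, -2.58 and -2.18.

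Of the 4 transporters, Slc2a1 rose and Slc2a3 and Slc16a1 fell. Slc2a1 rose from 67.3 and 56.2 CPM in female and 43.2 and 49.4 CPM in male fresh NK cells to 85.7 and 89.6 CPM and 94.6 and 87.2 CPM in culture (log2 fold change 0.84 ± 0.08 SE, adjusted p = 1.79e-07). Slc2a3 fell from 125 to 133 CPM in the 4 fresh libraries to 68.9 to 73.1 CPM in the 4 cultured ones (-0.74 ± 0.06, adjusted p = 3.33e-08). For both genes every cultured library lay on the same side of every fresh one.

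The mean log2 ratio of Slc2a3 to Slc2a1, on CPM + 0.5, moved from 1.26 ± 0.27 to -0.32 ± 0.05 (SD, n = 4 each). Slc16a1, the proton-coupled lactate transporter MCT1, fell from 65.2, 61.0, 88.5 and 75.8 CPM to 15.5, 11.3, 17.0 and 16.1 CPM in samples 1, 2, 4 and 5 (-2.18 ± 0.10, adjusted p = 2.58e-11). Its relative Slc16a3 was at 6.06 ± 0.634 CPM fresh and 5.83 ± 0.724 CPM cultured (n = 4 each), with no call.

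At the first and the committed step of the pathway, isoforms were called in opposite directions or 1 was called alone. Hk1, the hexokinase of most tissues and far above Hk2 in these cells, fell from 375 to 411 CPM in fresh libraries to 155 to 177 CPM in culture (-1.14 ± 0.06, adjusted p = 1.43e-10), and Hk2 was at 9.89 and 7.44 CPM on average, with no call. Pfkp, the platelet-type phosphofructokinase, rose from 247, 228, 243 and 242 CPM to 585, 642, 698 and 648 CPM (1.52 ± 0.06, adjusted p = 5.36e-12). The lowest cultured library was at more than 2 times the level of the highest fresh one.

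Pfkm, the muscle-type form, fell from 35.0, 37.3, 44.1 and 40.5 CPM to 6.22, 5.76, 7.06 and 5.41 CPM (-2.58 ± 0.11, adjusted p = 2.55e-11), and Pfkl, the liver type, fell by 0.47. The mean log2 ratio of Pfkm to Pfkp fell from -2.60 ± 0.15 to -6.61 ± 0.15, and that of Pfkl to Pfkp from -1.33 ± 0.21 to -3.31 ± 0.13 (SD, n = 4 each). Each of these ratio differences, and that of Slc2a3 to Slc2a1, had an exact two-sided permutation p = 0.0286, the smallest that 4 against 4 libraries allow, and 0.0571 after Benjamini-Hochberg adjustment over 30 ratio tests, so no ratio passed the threshold.

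At the other steps most called enzymes rose. Aldoa, an aldolase, rose from 364, 374, 321 and 344 CPM to 931, 890, 821 and 938 CPM (1.45 ± 0.06, adjusted p = 8.45e-12). Pgam1 (0.62 ± 0.07), Eno1 (0.53 ± 0.05), Gpi1 (0.39 ± 0.06) and Pgk1 (0.37 ± 0.07) rose by less, each without overlap between fresh and cultured libraries. For Pgk1 the gap was narrow, with fresh male 5 and cultured female 2 both at 120 CPM when rounded. Pkm rose by 0.36 ± 0.08 with overlapping libraries, and in female libraries alone its log2 change was 0.05 (adjusted p = 0.763).

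Ldha fell from 458, 435, 475 and 434 CPM to 302, 272, 293 and 292 CPM (-0.54 ± 0.06, adjusted p = 9.36e-07). Tpi1 fell by 0.25 on the log2 scale, a call lost in male libraries alone (-0.13, adjusted p = 0.244). Eno2, the neuronal-type enolase, fell from 6.33, 4.07, 1.93 and 1.96 CPM to between 0.0433 and 0.41 CPM (-4.45 ± 0.43, adjusted p = 3.19e-07).

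Gapdh needs caution because most counts of its family lay at near-identical copies. Multi-mapping reads were counted, so a read can add to the gene and to several copies, and sums with copies can hold it more than once. Its own identifier held 149173 counts over all libraries, while 155 near-identical copies held 2463955, and its level in fresh NK cells was only 49.9 CPM on average. Its log2 change of 0.20 ± 0.07 in culture (adjusted p = 0.0351) fell to 0.09 (adjusted p = 0.23) with the copies added, and the call was lost without any 1 of 6 libraries (adjusted p 0.059 to 0.188 without fresh female 1, fresh male 4, fresh male 5, cultured female 1, cultured female 2 or cultured male 5). Copies held 19.9% of the member's own counts for Pgam1, 14.3% for Pgk1, 13.9% for Eno1 and under 6% for the other members that had any.

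Of the flux regulators, Pfkfb3, which makes the activator of phosphofructokinase, fell from 83.8, 70.0, 61.9 and 71.6 CPM to 33.0, 33.1, 32.8 and 32.7 CPM (-1.03 ± 0.08, adjusted p = 3.12e-08). Pdk1, which closes the route of pyruvate into mitochondria, fell by 0.57 on the log2 scale, with -0.48 and adjusted p = 0.0554 in female libraries alone. Pfkfb4 was at 5.57 and 6.14 CPM on average, with no call.

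The oxygen-response genes held the largest rise among the members. Vegfa, the vessel growth factor, rose from 15.1, 20.7, 13.6 and 14.6 CPM to 80.3, 78.7, 81.9 and 63.5 CPM (2.37 ± 0.10, adjusted p = 3.34e-11). Bnip3, a receptor for mitophagy, rose from 6.86, 7.83, 6.68 and 6.85 CPM to 15.5, 14.4, 11.6 and 15.1 CPM (1.11 ± 0.14, adjusted p = 8.14e-06). In both cases the fresh and the cultured libraries did not overlap.

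Hif1a rose by 0.41 ± 0.07 and Egln1 by 0.25 ± 0.06, the latter with overlapping libraries and with 0.22 (adjusted p = 0.109) in female libraries alone. P4ha1 went the other way, from 45.9, 40.6, 57.6 and 42.4 CPM to 18.6, 21.1, 22.4 and 23.0 CPM (-1.03 ± 0.10, adjusted p = 5.32e-07). Ndrg1, a stress-induced gene often used as a hypoxia marker, was at 39.9 ± 6.87 and 33.1 ± 4.56 CPM (SD, n = 4 each), with no call, and Car9, Egln3 and Ankrd37 were each below 4 CPM in all 8 libraries, also with no call.

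Traces of red cell precursors moved with this comparison. The sum of 8 erythroid marker genes was 488 to 1020 CPM in fresh and 141 to 276 CPM in cultured libraries, with none of the 8 at 0 in either group, and 7 of the 8 fell. Pklr, the pyruvate kinase of red cells and liver, fell from 98.4 to 0.187 CPM (-9.12 ± 0.22). The part of these cells in the members' changes was not tested.

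Other genes of the pathways, from lists made for this work, did not move in one direction either. Of 19 tested further glycolysis genes 5 rose and 8 fell, with Tigar, a phosphatase that restrains glycolysis, up by 1.13 ± 0.15 and the hexokinase Hk3 down (-1.43 ± 0.20). Of 8 pentose phosphate genes 2 rose and 4 fell, among them H6pd (0.70 ± 0.08) and transketolase Tkt (-0.89 ± 0.06). Of 25 further HIF targets 11 rose and 4 fell: Hmox1, the haem oxygenase, went from 1.43 to 65.1 CPM (5.61 ± 0.14) and the chemokine receptor Cxcr4 from 170 to 60.9 CPM (-1.36 ± 0.13). Of 11 regulators of the HIF pathway 3 rose and 2 fell, with Hif3a, a HIF family member that can act as an inhibitor, at 17.8 CPM fresh and 0.125 CPM cultured (-7.32 ± 0.47).

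Between the sexes few members differed in NK cells. In fresh NK cells Slc2a1 (0.40 ± 0.11, adjusted p = 0.0316), Pfkl (0.33 ± 0.09, adjusted p = 0.0334) and Pkm (0.49 ± 0.12, adjusted p = 0.0238) were higher in female cells and Pgam1 (-0.41 ± 0.10, adjusted p = 0.0185) was lower, 4 calls of 33 tested beside 8.59% of all genes (4.03% higher, 4.57% lower). Pkm was at 428 and 331 CPM in female and 248 and 288 CPM in male fresh cells, so the groups did not overlap but female 1 stood well above female 2. Without fresh female 1 the 4 log2 differences were 0.18 (Slc2a1), 0.18 (Pfkl), 0.21 (Pkm) and -0.36 (Pgam1) and none of the 33 was called, and none was called without fresh male 4 either, while 2 were without fresh male 5. Summed neutrophil markers were at 16.3 and 42.8 CPM in female and 110 and 287 CPM in male fresh cells, with 1 of 7 called lower in female cells and 1 at 0 there, and 2 of 8 erythroid markers were called lower. Their part in these differences was not tested.

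In NK cells cultured alone no member was called between the sexes, by edgeR or by DESeq2, beside 0.0764% of all genes (0.0306% higher, 0.0459% lower); 5 of 33 (15.2%) had an unadjusted p under 0.05, against 5.34% of all genes. The interaction, whether culture changed a gene differently in female and male cells, was called for no member by edgeR beside 1.65% of all genes (0.479% higher, 1.17% lower) and with 5 of 33 (15.2%) at an unadjusted p under 0.05, against 15.5% of all genes. Pkm came nearest (-0.60 ± 0.17, female minus male change, adjusted p = 0.0889) and was called by DESeq2 (-0.54, adjusted p = 0.0168). Without fresh female 2 both Pkm (-0.79, adjusted p = 0.00372) and Slc2a1 (-0.61, adjusted p = 0.0321) were called.

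In the co-cultures the question is whether the mixture differed from Panc02 alone. The labels give 24 h with IL-2 for the co-cultures, but neither IL-2 nor a culture time for Panc02 alone. They give an RNA input of 100 ng for Panc02 and none for the co-cultures. Presence of NK cells, IL-2, time in culture and input therefore cannot be told apart in this comparison. Of 33 tested members 9 were higher and none lower, beside 18.3% of all 18172 genes (12.2% higher, 6.12% lower). The 9 fell into a pair with large folds and low levels (Slc2a3 and Slc16a3), Ankrd37, and 6 with log2 changes of 0.11 to 0.27 (Slc2a1, Hk1, Pfkp, Aldoa, Pkm and Ldha). The count of 9 was not stable. Leaving out either Panc02 library lowered it, and leaving out the co-culture with male NK sample 5 raised it. Each of these fits leaves a single library in a group, and the number called over all genes changed as well. Of the 9 calls, 3 held under every alternative.

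Slc2a3 was at 2.45, 3.72, 1.95 and 2.41 CPM in the co-cultures with NK samples 1, 2, 4 and 5 and at 0.0427 and 0.285 CPM in cultured Panc02 (4.06 ± 0.46, adjusted p = 9.99e-07). A sum of NK cells cultured alone and Panc02 in the shares given above would put it at 2.13, 2.56, 1.65 and 1.45 CPM. Slc16a3 was at 0.468, 0.278, 0.262 and 0.241 CPM against 2 counts in all of cultured Panc02, a ratio of 14 with a 95% counting interval of 3.87 to 116, and the same sum would give 0.117 to 0.232 CPM. The Slc16a3 call was lost without any 1 of 5 libraries (adjusted p 0.053 to 0.204, all but the co-culture with female NK sample 2).

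Pfkp, at 94.5 to 116 CPM in co-culture and 87.7 and 88.6 CPM in Panc02 (0.27 ± 0.06, adjusted p = 0.00418), lay within 0.1 log2 units of that sum in 3 co-cultures and 0.22 above it with male NK sample 4. Its call was lost without Panc02 1 (adjusted p = 0.0946) or Panc02 2 (0.0568). Hk1 was at 213 to 226 CPM against 199 and 195 CPM in Panc02 (0.19 ± 0.04, adjusted p = 5.56e-04) and Slc2a1 at 141 to 163 CPM against 134 and 126 CPM (0.24 ± 0.05, adjusted p = 0.00138; 0.20 and 0.0597 without Panc02 2). Both were above the sum in each co-culture, Hk1 by 0.11 to 0.20 and Slc2a1 by 0.13 to 0.33 log2 units.

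Aldoa, Pkm and Ldha each changed by 0.14 or less on the log2 scale. Aldoa and Ldha overlapped with Panc02 and their calls were lost without the co-culture with female NK sample 2 or male NK sample 4 or either Panc02 library (adjusted p 0.119 to 0.377 for Aldoa and 0.064 to 0.271 for Ldha). The Pkm call was lost without Panc02 2 (0.12, adjusted p = 0.102) and against co-cultures with female NK cells alone (0.11, adjusted p = 0.0764).

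Ankrd37, an ankyrin-repeat protein known as a direct HIF target, was the 1 oxygen-response gene called. It stood at 4.23, 6.67, 8.79 and 5.82 CPM in the co-cultures with NK samples 1, 2, 4 and 5 and at 3.16 and 2.78 CPM in cultured Panc02 (1.14 ± 0.21, adjusted p = 5.62e-04). Every co-culture was above both Panc02 libraries, and above the sum of its parts by 0.48 to 1.44 log2 units, since NK cells cultured alone held 0.853 CPM on average. Ndrg1 was also above the sum in all 4, by 0.21 to 0.78, at 71.4 to 106 CPM against 61.4 and 62.8 CPM, but it did not pass (0.47 ± 0.19, adjusted p = 0.225). So were P4ha1 (by 0.02 to 0.44), Pkm (0.09 to 0.17), Slc16a1 (0.06 to 0.12), Ldha, Aldoa, Slc2a3 and Slc16a3. Pfkm, Pfkfb3, Pfkfb4 and, with no count, Ldhb were below it in all 4. The share of all genes above such a sum was not computed.

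**Figure D3:**
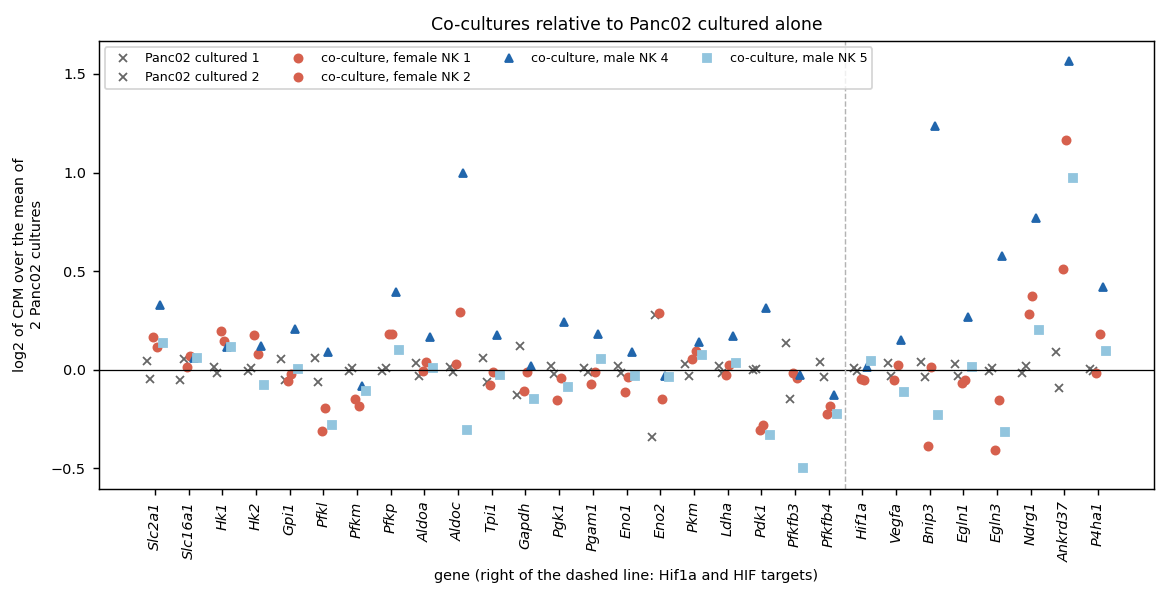
Log2 of each co-culture's CPM over the mean CPM of the 2 Panc02 cultures (vertical axis) for the 29 members with at least 1 CPM in both; circles are co-cultures with female NK cells, the triangle and square those with male NK samples 4 and 5, and crosses the Panc02 cultures themselves. The co-culture with male NK sample 4 lies above the other 3 in most genes, most clearly in Bnip3, Egln3, Pdk1 and Aldoc.

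The co-culture with male NK sample 4 lay above the other 3 in most of these genes, as the plot of co-cultures relative to Panc02 shows. It was the highest of the 4 in 9 of 10 oxygen-response genes and in 13 of 17 enzymes. The share of all genes in which it was the highest was not computed. Its fold over the highest of the other 3 was 1.02 for Gapdh, 1.03 for Pkm and 2.33 for Bnip3. Bnip3 was at 56.4 CPM there and 18.3 to 24.2 CPM in the other 3, Egln3 at 140 CPM against 70.9 to 84.3, Pdk1 at 91.1 CPM against 58.4 to 60.5, and Aldoc, the brain-type aldolase, at 20.6 CPM against 8.32 to 12.6. Cultured Panc02 held 24.6 and 23.3 CPM of Bnip3 and 73.4 and 73.5 CPM of Pdk1.

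Several values in the co-cultures turned on that library. Bnip3 against Panc02 was 0.30 ± 0.53 with all co-cultures (not called) and -0.15 without this library, and Pdk1 was -0.08 ± 0.21 (not called) and -0.26 (adjusted p = 0.00229) without it. With it as the only co-culture with male NK cells, 12 members were called lower with female NK cells, of 33 genes lower and 64 higher among 19478 tested, Bnip3 by -1.43, Egln3 by -0.88 and Pdk1 by -0.63 among them, and with the other male library alone none was. With both, Bnip3 (-0.86 ± 0.60), Egln3 (-0.50 ± 0.37) and Pdk1 (-0.34 ± 0.25) were not called.

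By NK donor sex the test called 1 of 33 members in co-culture, beside 1.14% of all genes (0.985% higher, 0.154% lower): Pgam1 was at 678 and 705 CPM with female and 808 and 738 CPM with male NK cells (-0.19 ± 0.04, adjusted p = 0.025). The groups did not overlap, but the call was lost without the co-culture with female NK sample 1 (-0.15, adjusted p = 0.168) or male NK sample 4 (-0.13, adjusted p = 0.402), without either Panc02 library (adjusted p = 0.0712 and 0.0578) and with near-identical copies added (-0.17, adjusted p = 0.051). Leaving out the co-culture with female NK sample 2 also changed the number of members called.

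Of the other lists in co-culture, 6 of 30 further HIF targets were higher than in Panc02 and none lower. Bhlhe40, a circadian and hypoxia-induced repressor, was at 64.6 against 37.3 CPM (0.84 ± 0.15) and Hmox1 at 73.3 against 49.0 CPM (0.63 ± 0.05). The oxidative pentose phosphate enzymes G6pdx and Pgd were each higher by 0.20. Of 17 further glycolysis genes 3 were higher and 2 lower.

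In the allografts most HIF targets were higher than in cultured Panc02, while enzymes were called in both directions. Of 34 tested members 13 were higher and 7 lower in the 8 allografts than in cultured Panc02, beside 62.1% of all 23264 genes (38.8% higher, 23.3% lower). Among the 9 HIF targets 7 were higher and none lower, with a median log2 change of 1.60, while among the 17 enzymes 3 were higher and 4 lower, with a median of -0.22. The median over all genes tested was 0.42, and 0.904 with no filter on low counts, so this background depends on which genes enter. The allograft and Panc02 counts come from separate deposited tables made with the same counting settings, although the labels name the allograft table for Panc02 as well. RNA input was 500 ng for allografts and 100 ng for cultured cells, so input and tumour growth cannot be told apart.

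**Figure D4:**
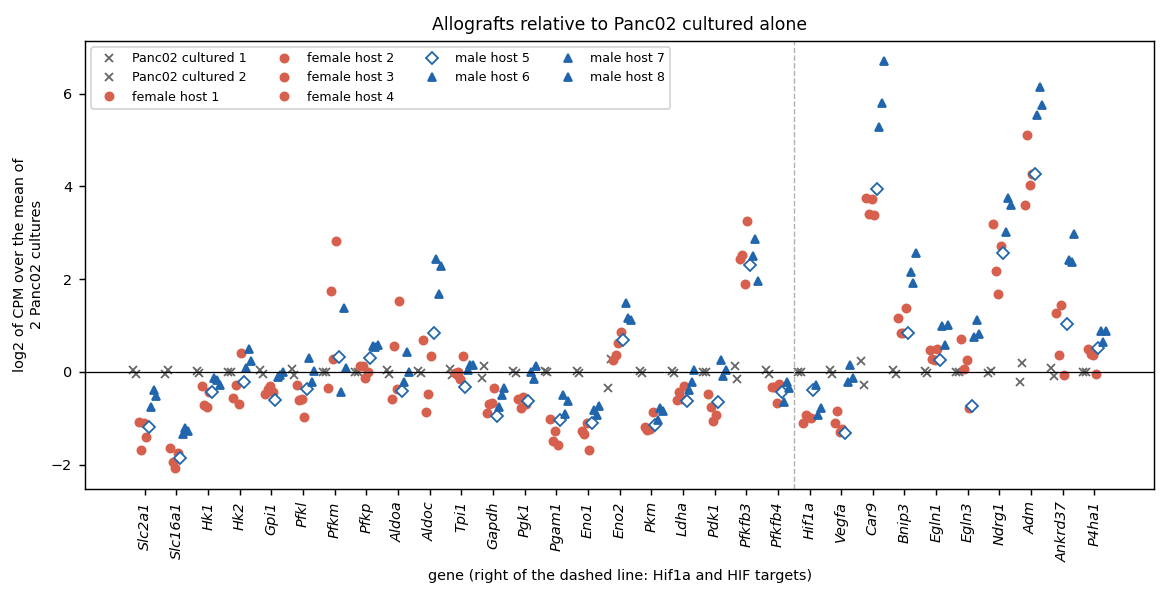
Log2 of each allograft's CPM over the mean CPM of the 2 Panc02 cultures (vertical axis) for the 31 members with at least 0.1 CPM in both Panc02 cultures; circles are female hosts, triangles and the open diamond (host 5) male hosts, crosses the Panc02 cultures. Car9, Adm and Ndrg1 lie above 0 in every allograft, Eno1, Pkm, Pgam1, Slc2a1 and Slc16a1 below 0, and male hosts 6, 7 and 8 lie on top in most oxygen-response genes.

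Car9, the cell-surface carbonic anhydrase widely used as a tissue marker of low oxygen, was at 0.406 and 0.285 CPM in cultured Panc02. In female hosts 1 to 4 it was at 4.63, 3.68, 4.59 and 3.59 CPM and in male hosts 5 to 8 at 5.34, 13.4, 19.1 and 35.9 CPM (4.71 ± 0.73, adjusted p = 2.66e-04). All allografts were above both cultures, and 3 of the 4 male-host tumours were well above all others. Adm, the vasodilator peptide adrenomedullin, went from 0.107 and 0.142 CPM to between 1.51 and 8.75 CPM with a median of 3.34 (4.99 ± 0.69, adjusted p = 1e-04).

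Ndrg1 rose from 61.4 and 62.8 CPM to 562, 281, 199 and 407 CPM in female and 366, 502, 841 and 757 CPM in male hosts (3.00 ± 0.48, adjusted p = 4.72e-04). Bnip3 rose from 24.6 and 23.3 CPM to 53.5, 43.0, 42.8 and 61.8 CPM in female and 42.8, 106, 90.6 and 142 CPM in male hosts (1.60 ± 0.39, adjusted p = 0.00518; 1.57 and 0.0538 without Panc02 2). Neither gene's allografts overlapped with the cultures.

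Ankrd37 (1.68 ± 0.52, adjusted p = 0.0168), Egln1 (0.63 ± 0.19, adjusted p = 0.0152) and P4ha1 (0.59 ± 0.15, adjusted p = 0.00507) complete the 7; Ankrd37 and P4ha1 overlapped with the cultures, and each lost its call without Panc02 1 (adjusted p = 0.0912, 0.0873 and 0.0541) or Panc02 2 (0.115, 0.105 and 0.0509). In female hosts alone Ankrd37 was at 0.92 (adjusted p = 0.134) and P4ha1 at 0.36 (adjusted p = 0.0761).

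A pair of HIF targets did not follow. Egln3 was at 93.5 and 94.3 CPM in culture and from 55.0 to 203 CPM in allografts with a median of 133 (0.46 ± 0.45, not called). Vegfa was at 179 and 171 CPM in culture and from 70.2 to 194 CPM in allografts with a median of 89.6 (-0.63 ± 0.27, adjusted p = 0.0632), and it was called lower without male host 5 (-0.56, adjusted p = 0.00502), without male host 7 (-0.72, adjusted p = 0.0343) in female hosts alone (-1.07, adjusted p = 6.07e-04), and by DESeq2 with all libraries (-0.67, adjusted p = 0.0412). Hif1a itself fell from 221 and 219 CPM to between 102 and 182 CPM (-0.72 ± 0.15, adjusted p = 0.00166).

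Among the transporters, 2 were higher and 2 lower in the tumours. Slc16a3, the lactate exporter typical of glycolytic cells, had 2 counts in all of cultured Panc02 and between 39.9 and 77.2 CPM, median 53.1, in the 8 allografts, a ratio of 2440 with a 95% counting interval of 677 to 20200. Slc16a1 fell from 289 and 311 CPM to between 71.2 and 130 CPM, median 93.4 (-1.55 ± 0.16, adjusted p = 1.27e-05). No allograft came within 100 CPM of either culture for Slc16a1.

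Slc2a3 rose from 0.0427 and 0.285 CPM to between 5.24 and 11.8 CPM, median 9 (5.80 ± 0.60, adjusted p = 1.27e-05), and Slc2a1 fell from 134 and 126 CPM to between 40.6 and 99.5 CPM, median 60.9 (-0.93 ± 0.19, adjusted p = 0.00156). The mean log2 ratio of Slc16a3 to Slc16a1 was -9.17 ± 0.16 (SD, n = 2) in culture and -0.83 ± 0.50 (n = 8) in allografts, and that of Slc2a3 to Slc2a1 was -7.65 ± 0.44 and -2.83 ± 0.31. Both differences had an exact permutation p = 0.0222, the smallest that 8 against 2 allow, and 0.0571 adjusted over the 30 tests.

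The 4 enzymes called lower in the allografts were Eno1, Pkm, Pgam1 and Gapdh. Eno1 went from 2110 and 2060 CPM to between 649 and 1250 CPM (-1.04 ± 0.14, adjusted p = 7.41e-05), Pkm from 3310 and 3170 CPM to between 1360 and 1900 CPM (-0.97 ± 0.15, adjusted p = 2.21e-04), and Pgam1 from 717 and 707 CPM to between 240 and 507 CPM (-0.97 ± 0.16, adjusted p = 4.12e-04). In all 3 genes each allograft was below both cultures. Gapdh fell by 0.56 on the log2 scale with the same limit on its counting as above, and its call was lost without Panc02 2 (-0.43, adjusted p = 0.188).

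Ldhb, the lactate dehydrogenase subunit of oxidative tissues, was detected in every tumour. It had no count in cultured Panc02 or in any co-culture and 13.7, 16.5, 9.45 and 14.2 CPM in female and 8.12, 6.06, 8.68 and 5.83 CPM in male hosts. Against a floor of 3 counts over the Panc02 group it was at least 306-fold higher. Ldha was at 1700 and 1660 CPM in culture and from 1090 to 1730 CPM in allografts (-0.31 ± 0.17, not called), and was called lower without male host 8 (-0.37, adjusted p = 0.0493).

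Eno2 (0.91 ± 0.29, adjusted p = 0.0192) and Pfkp (0.33 ± 0.12, adjusted p = 0.0293) were the other enzymes called higher. The Eno2 call was lost without Panc02 1 (0.63, adjusted p = 0.212), and that of Pfkp without Panc02 1 (0.31, adjusted p = 0.18), Panc02 2 (0.34, adjusted p = 0.143) or male host 6 (0.27, adjusted p = 0.0626). Of the regulators, Pfkfb3 rose from 7.62 and 6.24 CPM to between 25.6 and 65.6 CPM, median 38.3 (2.59 ± 0.38, adjusted p = 2.18e-04), while Pfkfb4 was at 61.5 and 58.3 CPM in culture and 37.7 to 51.2 CPM in allografts without a call. The mean log2 ratio of Pfkfb4 to Pfkfb3 was 3.03 ± 0.14 (SD, n = 2) and 0.24 ± 0.37 (n = 8), with the same exact permutation p = 0.0222.

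Transcripts of host cell types were present in the tumours and cannot be told apart from those of cancer cells in these counts. Summed macrophage markers were 3260 to 6770 CPM in allografts against 16.6 and 16.1 CPM in culture, fibroblast markers 345 to 1690 CPM against 0.704 and 0.546 CPM, and endothelial markers 137 to 402 CPM against 0.171 and 0.095 CPM. All 7 macrophage, 6 fibroblast and 6 endothelial markers were detected in allografts, whereas 4, 3 and 3 of them were at 0 in culture. The Panc02 epithelial markers fell in the same libraries, as given above, and 5 of 6 were called lower. The part of host cells in the members' changes was not tested.

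Skeletal muscle markers varied most among the tumours. Their sum over 12 genes was 1800, 25100, 3260 and 42200 CPM in female hosts 1 to 4 and 4810, 815, 11800 and 3250 CPM in male hosts 5 to 8, against 3.46 and 3.85 CPM in culture, where 6 of the 12 were at 0. Pfkm was at 61.2, 264, 94.9 and 555 CPM and at 98.2, 58.0, 205 and 83.7 CPM in the same order, against 77.9 and 78.8 CPM in culture. Its order over the 8 tumours was that of the muscle markers.

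**Figure D5:**
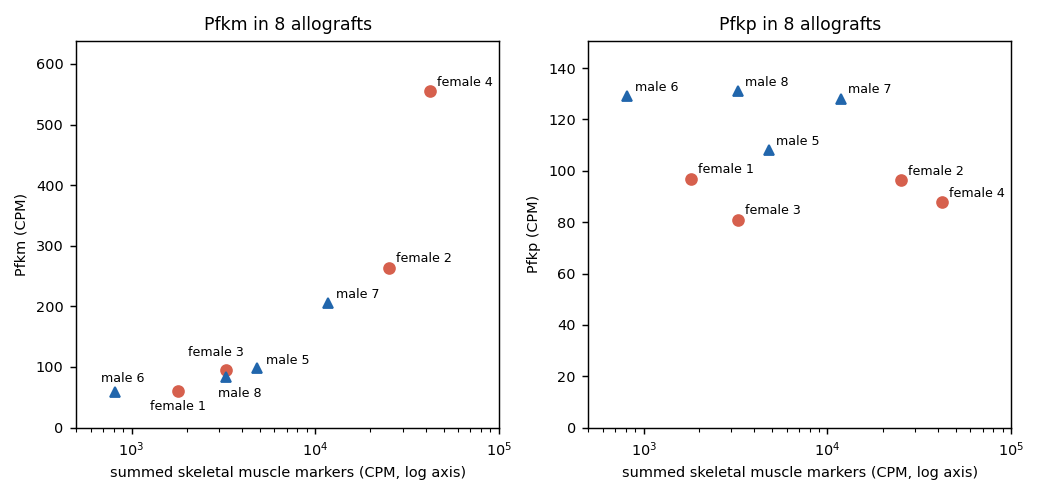
Pfkm (left) and Pfkp (right) in CPM against the summed skeletal muscle markers (CPM, log axis) in the 8 allografts; circles are female and triangles male hosts, each labelled with its number. Pfkm climbs with the markers from 58.0 to 555 CPM, while Pfkp stays between 81.0 and 131 CPM.

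Over the 8 allografts Pearson's r of Pfkm with the marker sum, both on a log2 scale, was 0.97 (exact permutation p = 2.48e-05, 0.000843 adjusted over 34 genes) and Spearman's rho was 1.00 (exact permutation p = 4.96e-05, 0.00169 adjusted). Without the 2 tumours farthest from the median of the marker sum (female hosts 2 and 4) r was 0.94. Within each host sex Pfkm also followed the order of the marker sum, and with 4 tumours a sex no r was computed there. For Aldoa r was 0.85 (exact permutation p = 0.00451, 0.0767 adjusted) and rho 0.71 (0.0576, 0.326 adjusted), and no member other than Pfkm passed. Against cultured Panc02, Pfkm was at 1.14 ± 0.84 and Aldoa at 0.33 ± 0.50, neither called, and without the 3 tumours richest in muscle transcripts (female hosts 2 and 4 and male host 7) they were at 0.08 and -0.28.

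The further lists held calls in the allografts as well. Of 22 tested further glycolysis genes 12 were higher and 2 lower, beside 38.8% and 23.3% of all genes. Their median log2 change was 0.95, against 0.42 over all genes tested. Of 31 other HIF targets 19 were higher and 4 lower, among them the collagen cross-linking oxidase Lox (1.99 to 178 CPM, 6.54 ± 0.48) and Loxl2 (0.516 to 121 CPM), and on the other side the transferrin receptor Tfrc (402 to 29.0 CPM, -3.75 ± 0.26). Epas1, which encodes HIF-2 alpha and is abundant in endothelial cells, went from 2.77 to 74.3 CPM (4.79 ± 0.32), 1 of 7 HIF pathway regulators of 10 that were higher. Pentose phosphate genes split into 3 higher, led by H6pd (2.25 ± 0.21), and 4 lower, with Tkt (-1.12 ± 0.12) and G6pdx (-1.08 ± 0.11) among them. Pdk4 and Pgam2, which skeletal muscle expresses strongly, had no count in culture and averaged 30.8 and 110 CPM in allografts.

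Between host sexes no member was called by edgeR in the allografts, where 0.0146% of all genes were. At an unadjusted p under 0.05 there were 18 of 34 members, 17 lower and 1 higher in female hosts, against 15% of all genes in either direction. DESeq2 called 239 genes higher and 310 lower of 40669 in its fit, 4 of them members: Car9 (-2.13, adjusted p = 8.59e-04), Aldoc (-1.84, adjusted p = 0.00173), Ankrd37 (-1.44, adjusted p = 0.0292) and, higher in female hosts, Ldhb (0.95, adjusted p = 0.00914). By edgeR their adjusted p were 0.19, 0.192, 0.231 and 0.19.

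Aldoc was at 16.6, 5.63, 7.38 and 13.1 CPM in female and 18.4, 55.9, 32.9 and 50.5 CPM in male hosts, so the groups did not overlap, with male host 5 next to the female hosts. Ankrd37 was at 7.18, 3.85, 8.11 and 2.83 CPM in female and 6.08, 15.9, 15.4 and 23.2 CPM in male hosts, with male host 5 among the female hosts. The Car9, Bnip3 and Ndrg1 values above show the same split of the male hosts for Car9 and Bnip3, whereas for Ndrg1 female host 1 exceeded male hosts 5 and 6.

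Male hosts 6, 7 and 8 were the 3 highest of the 8 tumours in 8 of 10 oxygen-response genes (Adm, Ankrd37, Bnip3, Car9, Egln1, Egln3, P4ha1 and Vegfa), in 9 of 17 enzymes, and in Slc2a1, Slc16a1 and Pdk1. In none of the 10 oxygen-response genes was a female-host tumour the highest. These 3 male-host tumours were singled out from the same values, and the share of all genes with them on top was not computed. The mean log2 ratio of Ldhb to Ldha was -6.46 ± 0.28 in female and -7.50 ± 0.47 in male hosts (SD, n = 4 each; exact permutation p = 0.0286, 0.0571 adjusted over 30). Macrophage marker sums of male hosts 6, 7 and 8 were 3730, 3950 and 3260 CPM against 3740 to 6770 CPM in the other 5 tumours, and whether this bears on the members' order was not tested.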

How the data were processed

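Libraries were mRNA sequencing of 22 samples in 9 groups by condition and sex. The deposited values are raw counts per gene, made by the authors with featureCounts 2.0.6 on Ensembl release 113 (GRCm39), stranded setting 2, with multi-mapping reads counted, per the file headers; cutadapt 4.4, HISAT2 2.2.1 and SAMtools 1.19.2 are named in the submitters' processing notes. Because multi-mapping reads and both mates count, genes with processed copies are less certain.

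Counts were tested with edgeR 4.0.16 in R 4.3.3 (quasi-likelihood, TMM scaling, low-count filter, Benjamini-Hochberg over all genes, threshold 0.05). The steps were also run on simulated counts with a spread taken from these data, with outcomes not given here. DESeq2 1.42.0 was an alternative. SE was taken from the log2 estimate and the F statistic of its test. CPM uses total gene counts, ratios use CPM + 0.5, and folds against groups at 0 use a floor of 3 counts over the group. Intervals are 95% exact Poisson and cover counting error only. NK share of a co-culture is from genes above 20 CPM in NK cells and below 0.1% of that in Panc02. Near-identical copies share at least 90% identity over 300 bases.

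The 34 genes and all lists were chosen with earlier results of these data known. Of 108 further pathway genes 107 were matched; those named are up to 3 called genes per list and direction with the largest change and at least 5 CPM. Comparisons that use the same Panc02 or fresh libraries are not independent of each other. Alternatives were other scaling, no filter, DESeq2, each library left out, single sexes, other sample sets and a replicate block.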

Additional observations from a re-analysis of the deposited data

Results flagged for a closer look

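Among 68 checks of single libraries within the 4 female-host or 4 male-host allografts, 3 found 1 library far from the other 3 (its gap to the nearest, over the range of the 4, exceeded Dixon's 95% critical value); chance flags about 1 in 20 groups. Pfkp was at 108 CPM in male host 5 and at 128 to 131 CPM in the other male hosts. Pkm was at 1790 CPM in female host 4 and at 1360 to 1420 CPM in the other female hosts. Pfkfb4 was at 37.7 CPM in female host 3 and at 47.7 to 49.7 CPM in the other female hosts.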

How the results depend on the processing

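Of the results followed, 1418 single-gene values kept direction and side of the threshold under an alternative, 83 lost the call, 24 gained one and 8 changed sign. The calls kept under every alternative were 19 of 24 for NK culture, 3 of 9 for co-culture (Slc2a3, Hk1 and Ankrd37), 13 of 20 for allografts against Panc02, 29 of 30 for NK cells against Panc02, and none of 4 and 1 for sex in fresh NK cells and co-cultures. The count of members with a sex-dependent culture effect was 0, and 2 with no filter on low counts, 1 by DESeq2 and 1 with the replicate block (Pkm, -0.59). For co-culture by NK sex it was 1, and 6 with no filter, 0 with co-culture libraries alone and 0 with near-identical copies summed. For host sex it was 0, and 4 by DESeq2.

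With 1 library left out, counts ran from 0 to 6 for sex in fresh NK cells, 0 to 2 for the sex-dependent culture effect, 4 to 18 for co-culture against Panc02 and 0 to 12 for co-culture by NK sex. In co-culture against Panc02, Pdk1 ran from -0.26 to 0.06 and Bnip3 from -0.15 to 0.58; by NK sex Pdk1 ran from -0.63 to 0.01, Bnip3 from -1.43 to 0.03 and Egln3 from -0.88 to 0.01, the extremes being without male NK sample 4 or 5. Pdk1 was at 0.07 with male NK co-cultures alone, Bnip3 at -0.14 with female ones alone, and Aldoa in allografts at -0.28 without the 3 richest in muscle transcripts. That alternative and the summed copies were chosen after seeing the data. The cause of these changes was not tested. Library names share a prefix across conditions for the same sample number, but whether the numbers pair libraries was not settled. Deviations of same-numbered fresh and cultured NK libraries correlated at 0.02 in female and 0.22 in male samples. Other pairs were at 0.02 to 0.05, but each included a co-culture of mostly Panc02 RNA, which could hardly show pairing of NK cells. The main tests did not pair libraries. The replicate block changed no other member call. A lone library left in a group is assumed to vary like the other groups.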
